A study of Gallus gallus with 15 samples.

Results

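Complexes II to V of the mitochondrial respiratory chain were described through the 39 genes, of 17475 in the deposited table, whose symbol is one of SDHA to SDHD, begins with UQCR, COX4 to COX8 or ATP5, or is CYC1. No gene matched the symbol CYC1. The 39 genes comprised 4 of complex II, 8 of complex III, 9 of complex IV and 16 of complex V, together with ATP5S and ATP5SL, which carry the ATP5 name without being core subunits of the ATP synthase. The rule selects by name and uses no expression value, but it was chosen with earlier results of these data known. All 39 passed the filter on low expression, a mean deposited FPKM of at least 0.2, that left 11858 genes for testing. The subunits of these complexes that the mitochondrial genome encodes were not analysed here.

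Complex II oxidizes succinate to fumarate and passes the electrons to ubiquinone, which links the citrate cycle to the respiratory chain. Complex III takes electrons from ubiquinol to cytochrome c, and complex IV passes them to oxygen. Complexes III and IV pump protons out of the matrix, and complex V, the ATP synthase, lets them back in and makes ATP. Breast muscle of chickens is built mainly of fast, glycolytic fibres and holds fewer mitochondria than leg muscle.

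RNA had been sequenced from the left breast muscle of 15 female Korat chickens (KRC), a cross of Thai indigenous males with a breeder line. At 10 weeks of age, 5 birds came from the L-histidine supplementation group (C), fed 0.5% L-histidine in the diet, 5 from the β-alanine supplementation group (B), fed 1% β-alanine, and 5 from the non-supplemented group (A), the control. The experimental diets were given from 4 weeks of age, and all 3 groups shared the basal diet, the housing and the sex. Each library came from 1 bird of a separate cage, so that the replicates were separate animals. L-Histidine and β-alanine are the amino acids that muscle joins into carnosine, a dipeptide that buffers acid. The comparisons address how muscle expression differed between birds given either precursor as a supplement and birds given no supplement.

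Libraries held 10620229 to 15381547 counted fragments per bird, with the fewest in control bird 4. Levels are given as normalized FPKM, the fragments per kilobase of exon relative to a library size scaled by relative log expression (RLE), with mean ± SD of 5 birds per group. Fold changes and p-values come from the quasi-likelihood test of edgeR, with Benjamini-Hochberg adjustment over all 11858 genes, and a gene was called at an adjusted p under 0.05 with a fold change of at least 1.5. Of 10 skeletal muscle markers, 6 were matched in the table, and their summed level was 59850 to 109300 normalized FPKM in C, 76660 to 101700 in B and 91270 to 145100 in A. Of the 15 libraries, 2 stood apart, those of control birds 3 and 4. Their RLE factors were 0.856 and 0.678, against 0.933 to 1.19 in the other 13 birds, and 13583 and 12951 genes were detected in them, against 13769 to 14472 in the others. Both had relatively more fragments from short genes. The length slope, which is the change in log2 deviation of all tested genes per doubling of exonic length, was −0.21 in each, against −0.07 to 0.11 in the other birds. The respiratory genes are short, with a median exonic length of 827 bases, against 3110 bases over all genes tested. Each comparison with the control was also run without these 2 birds, a choice made after seeing the data. Both were above the other control birds in 34 of the 39 genes, so leaving them out lowers the control level of most members.

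All 39 genes were detected in every bird, at levels that differed widely between subunits. The highest mean over 15 birds was that of ATP5F1B, the catalytic beta subunit of the ATP synthase, with 561 normalized FPKM, followed by UQCR10, a small subunit of complex III, with 537. The lowest means were those of ATP5S (4.17), ATP5G2 (4.21), COX7A2 (4.67) and COX8A (10.7). In the lowest library, COX7A2 was counted 25 times, ATP5G2 20 times and ATP5S 29 times. Summed over the 4 genes of complex II, the level was 354 ± 49.6 normalized FPKM in C, 404 ± 62.3 in B and 571 ± 218 in A. The 8 genes of complex III summed to 1536 ± 291 in C, 1857 ± 227 in B and 2169 ± 600.0 in A. The 9 genes of complex IV summed to 1297 ± 257 in C, 1458 ± 77.8 in B and 1783 ± 527 in A. The 16 genes of complex V summed to 2867 ± 547 in C, 3225 ± 229 in B and 4093 ± 1386 in A. With all birds, the mean sums were lowest in C and highest in A in all 4 complexes, and the SD of A was the largest in each. The other 3 control birds, without birds 3 and 4, averaged 428 ± 22.6 for complex II, 1755 ± 175 for complex III, 1399 ± 66.3 for complex IV and 3150 ± 100.2 for complex V (SD, n = 3). These means were below those of B in complexes III, IV and V and above those of C in all 4. The median coefficient of variation of the 39 genes was 23.5% in C, 16.0% in B and 35.7% in A, beside 24.4%, 21.7% and 31.9% over all genes tested. In whole tissue, fewer cells or fibres of a type and less RNA per cell cannot be told apart.

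**Figure D1:**
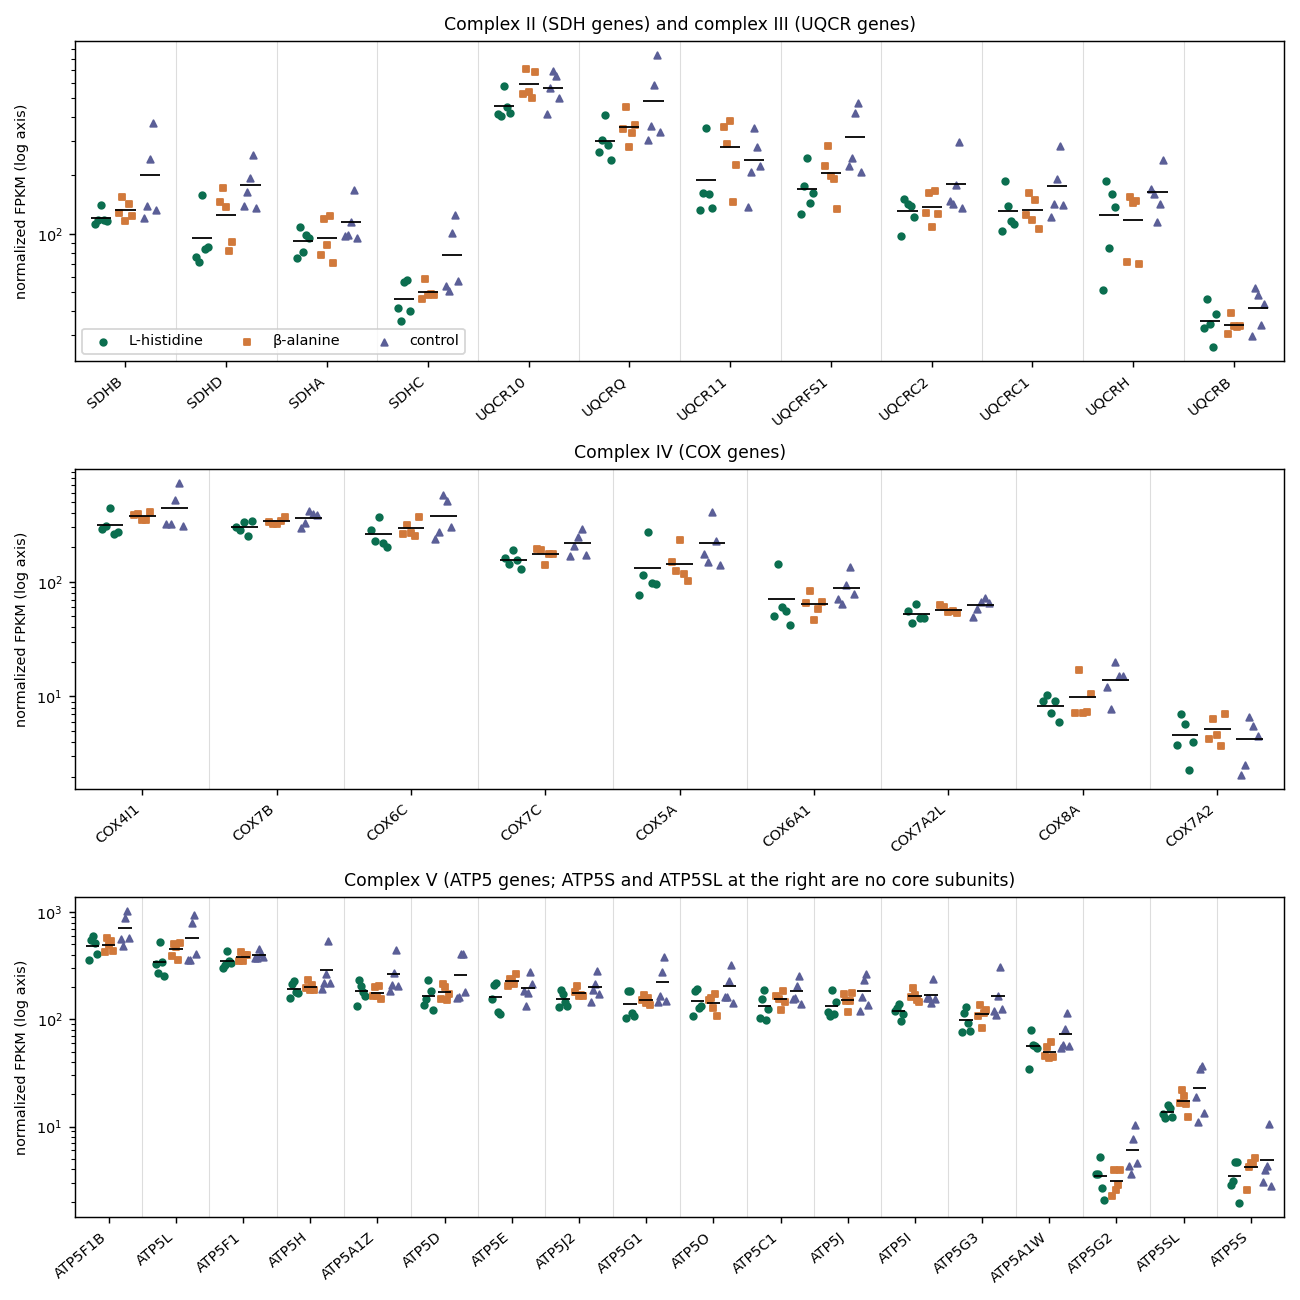
Normalized FPKM (log axis) of each of the 39 genes in every bird, grouped by complex and ordered by mean level, with L-histidine, β-alanine and control birds side by side and a bar at each group mean. ATP5F1B and UQCR10 lie at the top and COX7A2, ATP5G2 and ATP5S at the bottom, and the highest point of a gene is often a control bird.

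The estimates of most respiratory genes were below the control in both supplemented groups, but none passed the test. In C against A, 0 of the 39 genes were called, and 0% of all genes tested were called in either direction. In B against A, 0 of the 39 were called as well, beside 0% of all genes in either direction. The log2 fold change was negative for 38 of the 39 genes (97.4%) in C against A, whereas 49.0% of all genes tested had a negative estimate. In B against A it was negative for 35 of the 39 (89.7%), beside 51.7% of all genes. The median log2 fold change of the 39 genes was −0.48 in C (fold 0.717) and −0.40 in B (fold 0.757), and over all genes it was 0.01 in C and −0.02 in B. At an unadjusted p under 0.05, 21 of the 39 genes (53.8%) were lower in C and 0 higher, against a background of 11.2% of all genes lower and 7.99% higher. In B, 9 of the 39 (23.1%) were lower and 0 higher at that limit, against 6.17% of all genes lower and 4.47% higher. The adjusted p of the 39 genes ranged over 0.170 to 0.864 in C and 0.425 to 0.922 in B. DESeq2, run on the same counts, gave an adjusted p under 0.05 to 2 of the 39 genes in C, SDHD and UQCRFS1, beside 0.900% of all genes lower, and to 0 in B, beside 0.201% of all genes lower. Both comparisons share the 5 control birds, so their directions are not independent.

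By complex, the median log2 fold change in C against A was −0.74 for complex II, −0.42 for complex III, −0.47 for complex IV and −0.52 for complex V. In B against A it was −0.55 for complex II, −0.40 for complex III, −0.31 for complex IV and −0.50 for complex V. Without control birds 3 and 4, the median in C was −0.16 for complex II, −0.13 for complex III, −0.15 for complex IV and −0.13 for complex V, and in B it was −0.06, −0.03, 0.00 and 0.01 in that order. Over the 39 genes it was then −0.12 in C and −0.01 in B, beside 0.02 in each over all genes tested. Estimates were then below the control for 34 of the 39 genes in C, beside 5607 of all 11858 genes. In B they were below it for 21 of the 39, beside 5624 of all 11858 genes. At an unadjusted p under 0.05, 2 of the 39 genes were then lower in C (background 2.71% of all genes lower) and 0 in B (background 3.13%). Leaving out single birds or the scaling also moved the counts. The share of all genes at that limit was not taken for these fits, so a shift of the members cannot be told from one of all genes. Without control bird 4 the count was 6 in C and 0 in B, without control bird 3 it was 10 in C and 2 in B, and without control bird 1 it was 28 in C and 16 in B. The count in C was 13 without L-histidine bird 1 and 12 without L-histidine bird 5. The count in B was 14 without control bird 2, and 3, 5 and 2 without β-alanine birds 1, 3 and 5. With no scaling beyond library totals, the median over the 39 genes was −0.14 in C and −0.12 in B while all genes moved to 0.29 in C and 0.18 in B, and the 2 genes of B at an unadjusted p under 0.05 were split into 1 lower and 1 higher. Relative to the median of all genes, the 39 genes then lay at −0.44 in C and −0.31 in B, against −0.49 in C and −0.39 in B with scaling.

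**Figure D2:**
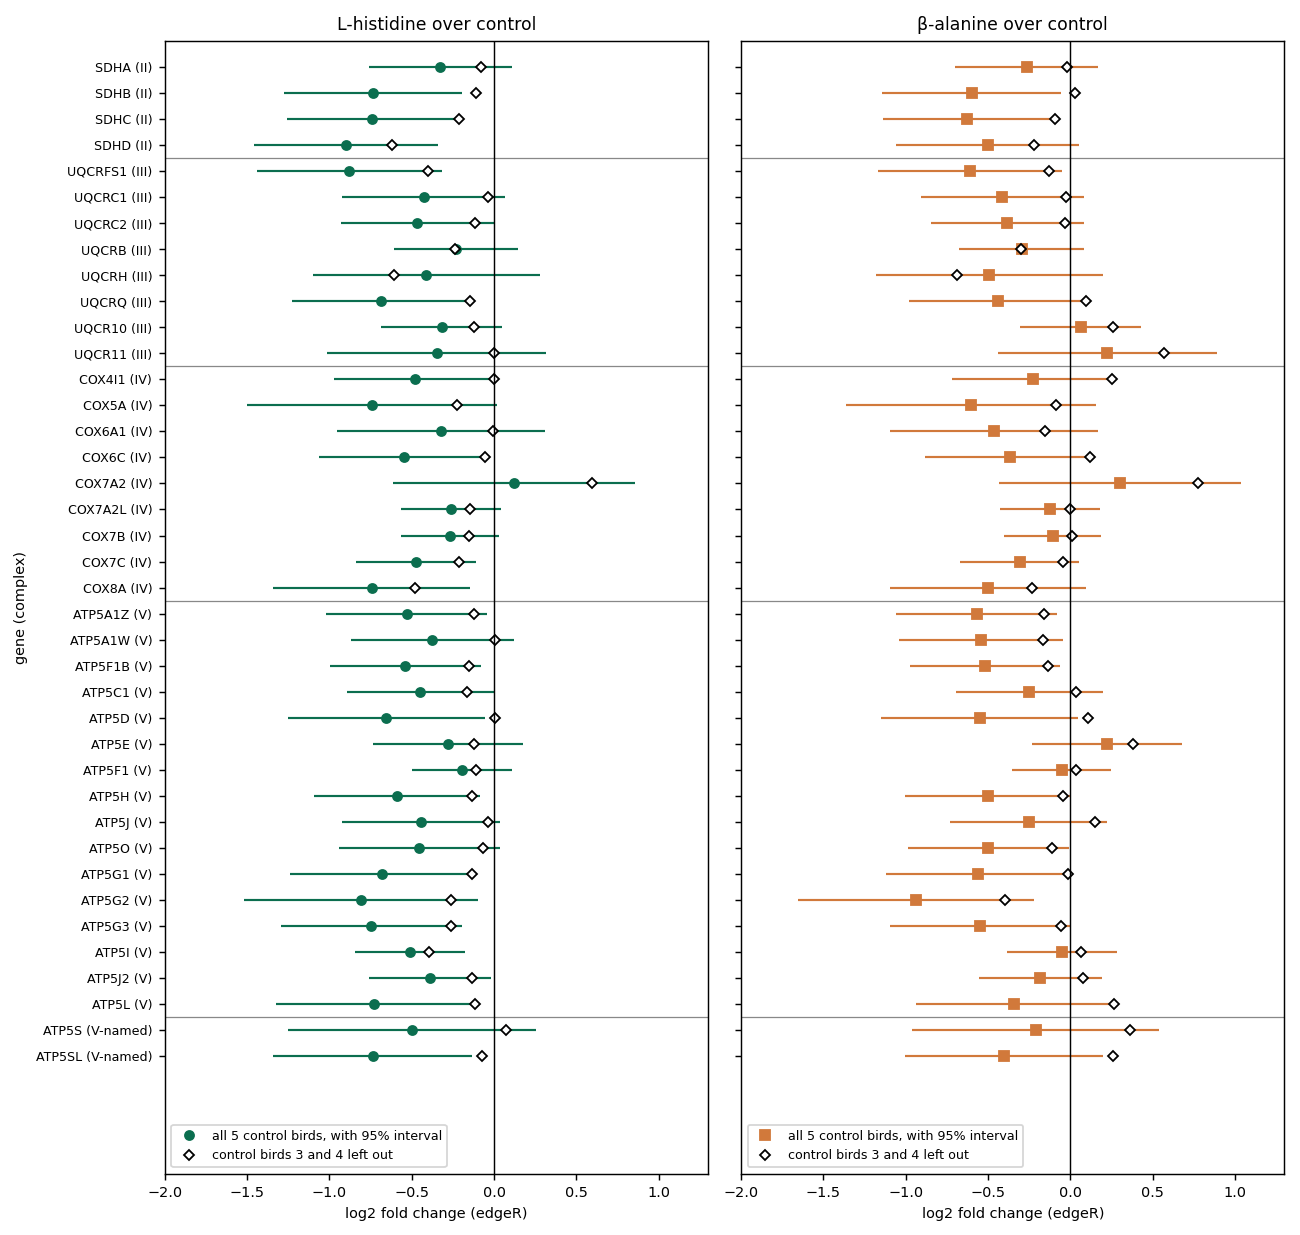
Log2 fold change from edgeR for each of the 39 genes, L-histidine over control at the left and β-alanine over control at the right, with filled symbols and 95% intervals for all 5 control birds and open diamonds without control birds 3 and 4. The filled symbols lie left of 0 for 38 genes in L-histidine and 35 in β-alanine, and most diamonds lie nearer to 0.

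Of the 4 subunits of complex II, all had estimates below the control in both supplemented groups. SDHD, one of the membrane anchors that hold cytochrome b (chromosome 24, 6175392 to 6178295 on GRCg6a, minus strand), had the smallest p of the 39 genes in C against A. SDHD had 75.7, 71.9, 159, 83.2 and 85.8 normalized FPKM in L-histidine birds 1 to 5, 146, 173, 137, 81.0 and 90.5 in β-alanine birds 1 to 5 and 138, 165, 195, 255 and 136 in control birds 1 to 5. Of the L-histidine birds, 4 lay below every control bird, and L-histidine bird 3 lay among the controls. The means were 95.1 ± 36.1 in C, 125 ± 38.7 in B and 178 ± 49.3 in A. On the log2 scale, SDHD differed from the control by −0.90 ± 0.26 (SE) in C (adjusted p = 0.170) and −0.50 ± 0.26 in B (adjusted p = 0.499). DESeq2 gave SDHD an adjusted p of 0.0473 in C, and over the alternatives run the adjusted p in C lay between 0.0473 and 0.764. With control birds 3 and 4 left out, the estimate in C was −0.62 (95% interval −1.22 to −0.02, adjusted p = 0.764).

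SDHC, the other membrane anchor (chromosome 25, 3904893 to 3911837), showed a different spread. SDHC had 41.5, 35.6, 56.1, 57.5 and 39.8 normalized FPKM in L-histidine birds 1 to 5, 45.9, 58.7, 48.2, 48.8 and 48.2 in β-alanine birds 1 to 5 and 53.6, 50.5, 101, 125 and 56.7 in control birds 1 to 5. Control birds 3 and 4 were at 101 and 125, and every other bird of the 15 was at or under 58.7. For SDHC, the log2 fold change was −0.74 ± 0.24 in C (adjusted p = 0.176) and −0.63 ± 0.24 in B (adjusted p = 0.434), and without control birds 3 and 4 it was −0.21 in C and −0.10 in B. SDHB, the iron-sulfur subunit that carries electrons through the complex (chromosome 21), had the same outline. SDHB had 112, 118, 140.3, 118 and 116 normalized FPKM in L-histidine birds 1 to 5, 127, 155, 117, 142 and 124 in β-alanine birds 1 to 5 and 120.2, 139.5, 242, 372 and 133 in control birds 1 to 5. The other 3 control birds overlapped the supplemented birds, and the log2 fold change was −0.74 in C and −0.60 in B with all controls, but −0.11 in C and 0.03 in B without control birds 3 and 4. SDHA, the flavoprotein that oxidizes succinate (chromosome 2), averaged 91.7 ± 13.7 in C, 95.6 ± 23.9 in B and 115 ± 30.8 in A. Its groups overlapped, with 1 control bird, number 4, at 168 normalized FPKM and the other 14 birds between 71.0 and 123. For SDHA, the log2 fold change was −0.33 ± 0.21 in C (adjusted p = 0.380) and −0.27 ± 0.21 in B (adjusted p = 0.626), and without control birds 3 and 4 it was −0.08 in C and −0.02 in B.

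In complex III, UQCRFS1, the Rieske iron-sulfur protein that takes the first electron from ubiquinol (chromosome 11, 8114724 to 8118077, minus strand), had the smallest p in both comparisons. UQCRFS1 had 126, 177, 247, 144 and 162 normalized FPKM in L-histidine birds 1 to 5, 224, 283, 199, 192 and 135 in β-alanine birds 1 to 5 and 225, 247, 420.4, 476 and 208 in control birds 1 to 5. All of C but bird 3 lay below the lowest control bird, and in B 3 of the 5 birds did. The estimate of UQCRFS1 on the log2 scale was −0.88 ± 0.27 in C (adjusted p = 0.170) and −0.61 ± 0.26 in B (adjusted p = 0.445). DESeq2 gave an adjusted p of 0.0498 in C, and over the alternatives run it lay between 0.0498 and 0.812. Leaving out control birds 3 and 4 gave −0.40 in C and −0.13 in B, with intervals that included 0.

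The core proteins UQCRC1 (chromosome 12) and UQCRC2 (chromosome 14), which carry the matrix side of complex III, averaged 131 ± 33.6 and 130.4 ± 21.2 in C, 132 ± 23.4 and 138 ± 24.8 in B, and 177 ± 65.8 and 180.1 ± 67.2 in A. Control bird 4 was the highest of all 15 birds for both, at 285 for UQCRC1 and 297 for UQCRC2. Their log2 fold changes were −0.43 and −0.47 in C, and −0.41 and −0.38 in B. With control birds 3 and 4 left out, all 4 estimates lay between −0.12 and −0.03. The small subunit UQCRQ (chromosome 13) behaved like UQCRFS1 in its control birds. UQCRQ had 263, 305, 410.1, 286 and 241 normalized FPKM in L-histidine birds 1 to 5, 349, 454, 281, 332 and 365 in β-alanine birds 1 to 5 and 306, 361, 586, 834 and 335 in control birds 1 to 5. Control birds 3 and 4 were above every other bird, and the log2 fold change was −0.69 ± 0.26 in C (adjusted p = 0.187) and −0.44 ± 0.26 in B (adjusted p = 0.532). Without these 2 birds the estimate of UQCRQ was −0.15 in C and 0.10 in B.

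UQCR10 (chromosome 15), the most expressed gene of complex III, had another pattern. UQCR10 had 414, 407, 576, 449.9 and 422 normalized FPKM in L-histidine birds 1 to 5, 529, 706, 537, 502 and 684 in β-alanine birds 1 to 5 and 418, 565, 693, 653 and 504 in control birds 1 to 5. The β-alanine and control birds overlapped, and 4 of the L-histidine birds lay between 407 and 450 normalized FPKM. For UQCR10, the log2 fold change was −0.32 ± 0.17 in C (adjusted p = 0.319) and 0.06 ± 0.17 in B (adjusted p = 0.905), and without control birds 3 and 4 it was −0.12 in C and 0.26 in B. UQCRB (chromosome 2), the least expressed gene of complex III, averaged 35.4 ± 7.30 in C, 33.9 ± 3.07 in B and 41.6 ± 9.65 in A, and control birds 3 and 4 were at 48.5 and 33.8, within the range of the other controls. For UQCRH, the hinge protein, control birds 3 and 4 (114.5 and 142) were below the other 3 controls (160 to 241), the reverse of most members. The log2 fold change of UQCRH was −0.41 in C and −0.49 in B, and −0.61 in C and −0.69 in B without control birds 3 and 4. That of UQCRB was −0.23 in C and −0.30 in B, and −0.24 in C and −0.30 in B without them. UQCR11, a small subunit, had its highest value, 383, in a β-alanine bird, and its estimate in B was above the control (0.22, adjusted p = 0.807, and 0.57 without control birds 3 and 4). In C the estimate of UQCR11 was −0.35 (adjusted p = 0.545), and −0.002 without control birds 3 and 4.

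In complex IV, COX7C, a small membrane subunit (chromosome Z, 61440589 to 61443095), and COX8A, the ubiquitous isoform of subunit 8 in mammals, had the smallest p in C against A. COX7C had 161, 144, 189, 156 and 130.1 normalized FPKM in L-histidine birds 1 to 5, 193, 191, 140.1, 174 and 175 in β-alanine birds 1 to 5 and 169, 205, 247, 291 and 170.1 in control birds 1 to 5. L-Histidine bird 3, at 189, was the only one of C above the lowest control bird, and β-alanine birds were spread between 140.1 and 193. In edgeR, COX7C had a log2 fold change of −0.47 ± 0.17 in C (adjusted p = 0.183) and −0.31 ± 0.17 in B (adjusted p = 0.522). COX8A had 9.19, 10.2, 7.15, 9.05 and 5.98 normalized FPKM in L-histidine birds 1 to 5, 7.20, 17.2, 7.19, 7.34 and 10.5 in β-alanine birds 1 to 5 and 12.0, 7.74, 19.9, 15.1 and 15.2 in control birds 1 to 5. The L-histidine birds of COX8A overlapped the controls only at control bird 2, and its log2 fold change was −0.74 ± 0.28 in C (adjusted p = 0.190) and −0.50 ± 0.28 in B (adjusted p = 0.526). With control birds 3 and 4 left out, the estimates were −0.21 for COX7C and −0.48 for COX8A in C, and −0.05 for COX7C and −0.23 for COX8A in B.

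COX4I1, the nuclear-encoded subunit through which ATP regulates the enzyme in mammals (chromosome 11), had the highest level of complex IV. COX4I1 had 289, 308, 438, 259 and 273 normalized FPKM in L-histidine birds 1 to 5, 379, 388, 345, 349 and 405 in β-alanine birds 1 to 5 and 319, 318, 518, 723 and 305 in control birds 1 to 5. The 3 other control birds lay between 305 and 319, inside the range of the L-histidine birds and below all 5 β-alanine birds. For COX4I1, the log2 fold change was −0.48 ± 0.23 in C and −0.23 ± 0.23 in B with all controls, and 0.00 in C and 0.25 in B without control birds 3 and 4. COX5A (chromosome 10), a subunit on the matrix side, was the most variable of the 39 genes within C, with a coefficient of variation of 60.3%. COX5A had 76.4, 116, 270.4, 97.4 and 95.6 normalized FPKM in L-histidine birds 1 to 5, 149, 124, 229.9, 117 and 103 in β-alanine birds 1 to 5 and 173, 149, 408, 227 and 139 in control birds 1 to 5. In each group a single bird was far above the others, and this was bird 3 every time. For COX5A, the log2 fold change was −0.74 ± 0.36 in C (adjusted p = 0.272) and −0.60 ± 0.36 in B (adjusted p = 0.538), and without control birds 3 and 4 it was −0.22 in C and −0.09 in B.

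The isoform genes of complex IV did not move as 1 group. In mammals COX6A1 and COX7A2 are the ubiquitous isoforms of subunits that also have heart and muscle isoforms, and no gene was named COX6A2 or COX7A1 among the members. COX6A1 (chromosome 15) averaged 70.4 ± 41.3 in C, 63.7 ± 13.4 in B and 88.1 ± 28.1 in A, and L-histidine bird 2, at 143, was the highest of all 15 birds. COX7A2 (chromosome 3) was the only member with an estimate above the control in C (0.12 ± 0.35, adjusted p = 0.864). COX7A2 had 3.79, 7.03, 5.78, 2.30 and 3.995 normalized FPKM in L-histidine birds 1 to 5, 4.24, 6.37, 4.65, 3.69 and 7.01 in β-alanine birds 1 to 5 and 2.07, 2.54, 6.62, 5.50 and 4.499 in control birds 1 to 5. The 3 groups overlapped over nearly their whole ranges, and the estimate in B was 0.30 ± 0.35 (adjusted p = 0.761). Without control birds 3 and 4 the estimates of COX7A2 were 0.59 in C and 0.78 in B. COX7A2L, which in mammals ties complexes III and IV into supercomplexes (chromosome 3), varied little, with 52.0 ± 7.998 in C, 57.4 ± 3.76 in B and 62.5 ± 9.14 in A. Its log2 fold change was −0.26 ± 0.14 in C and −0.12 ± 0.14 in B, against −0.15 in C and 0.00 in B without control birds 3 and 4. COX6C and COX7B had negative estimates in both comparisons, at −0.54 and −0.27 in C and −0.37 and −0.11 in B. Without control birds 3 and 4 their estimates were −0.06 and −0.15 in C, and above the control in B, at 0.12 and 0.01.

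**Figure D3:**
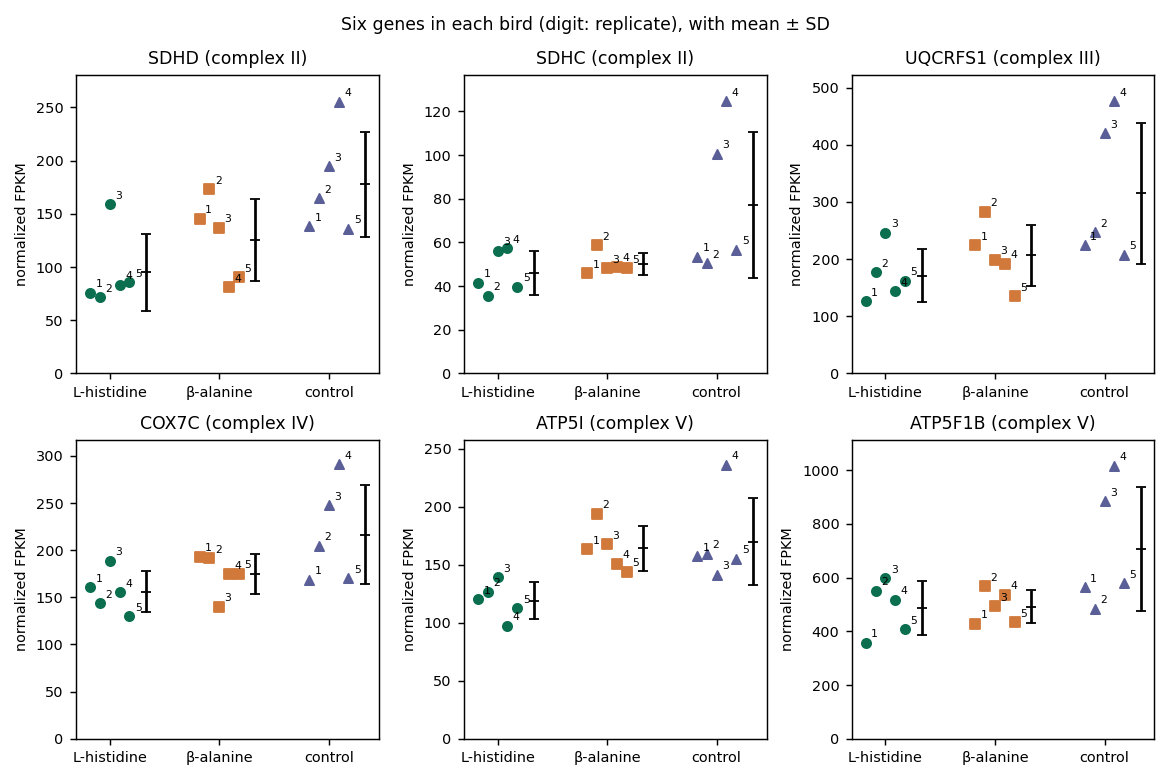
Normalized FPKM of SDHD, SDHC, UQCRFS1, COX7C, ATP5I and ATP5F1B in each bird (L-histidine, β-alanine and control, left to right, numbered by replicate), with the mean ± SD of each group as a bar. Control birds 3 and 4 are the highest points for SDHD, SDHC, UQCRFS1, COX7C and ATP5F1B, and in ATP5I the 5 L-histidine birds (97.4 to 139) lie below all other birds.

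In complex V, the catalytic head of the ATP synthase is made of alpha and beta subunits that alternate in a ring. ATP5F1B encodes the beta subunit. ATP5F1B had 358, 552, 597, 518 and 407 normalized FPKM in L-histidine birds 1 to 5, 428, 568, 493, 537 and 435 in β-alanine birds 1 to 5 and 565, 484, 885, 1017 and 578 in control birds 1 to 5. Control birds 3 and 4 were above all others, and the remaining 3 controls (484 to 578) overlapped both C (358 to 597) and B (428 to 568). In edgeR, ATP5F1B had a log2 fold change of −0.54 ± 0.22 in C (adjusted p = 0.206) and −0.52 ± 0.22 in B (adjusted p = 0.445). Leaving out control birds 3 and 4 gave −0.15 in C and −0.13 in B.

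The alpha subunit is encoded on both sex chromosomes of the hen, by ATP5A1Z (chromosome Z, 2151344 to 2159326) and ATP5A1W (chromosome W, 1391533 to 1453513). The sources used here do not state how fragments that match both copies were counted, and the split between them is uncertain. ATP5A1Z had 133, 231, 205, 179 and 164 normalized FPKM in L-histidine birds 1 to 5, 164, 199, 165, 205 and 154 in β-alanine birds 1 to 5 and 184, 207, 272, 447 and 205 in control birds 1 to 5. ATP5A1W averaged 56.3 ± 16.0 in C, 50.1 ± 7.78 in B and 73.0 ± 26.03 in A. The W copy made up 23.4 ± 2.05% of the summed alpha level in C, 22.0 ± 0.852% in B and 21.9 ± 0.923% in A, and the share lay between 20.5% and 25.6% in all 15 birds. Control bird 4 was the highest bird for both copies, at 447 for the Z copy and 115.5 for the W copy. ATP5A1Z had a log2 fold change of −0.53 ± 0.23 in C (adjusted p = 0.232) and −0.57 ± 0.23 in B (adjusted p = 0.442), and ATP5A1W had one of −0.37 ± 0.24 in C and −0.54 ± 0.24 in B. Without control birds 3 and 4 these were −0.12 in C and −0.16 in B for ATP5A1Z, and 0.00 in C and −0.16 in B for ATP5A1W.

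The rotor ring in the membrane is built of subunit c, for which 3 genes encode the same mature protein in mammals. ATP5G1 (chromosome 27) gave 57.5 ± 2.26% of the summed c level in C, 56.8 ± 3.80% in B and 56.6 ± 3.56% in A. ATP5G3 (chromosome 7) gave 41.1 ± 2.18% in C, 42.0 ± 3.65% in B and 41.8 ± 3.56% in A, and ATP5G2 1.43 ± 0.354% in C, 1.17 ± 0.239% in B and 1.54 ± 0.158% in A. The shares of ATP5G1 and ATP5G3 differed between groups by less than the spread between birds. ATP5G3 had 76.8, 114, 129, 93.0 and 77.8 normalized FPKM in L-histidine birds 1 to 5, 108, 136, 83.3, 116 and 122 in β-alanine birds 1 to 5 and 119, 110.3, 164, 307 and 124 in control birds 1 to 5. Control bird 4 stood alone at 307, and the log2 fold change was −0.75 ± 0.26 in C (adjusted p = 0.180) and −0.55 ± 0.26 in B (adjusted p = 0.468). ATP5G1 averaged 139 ± 41.1 in C, 151 ± 13.1 in B and 224 ± 104 in A, with log2 fold changes of −0.68 in C and −0.56 in B. Without control birds 3 and 4 the estimates of ATP5G3 were −0.26 in C and −0.06 in B, and those of ATP5G1 −0.13 in C and −0.01 in B. ATP5G2 had the smallest p of the 39 genes in B against A. ATP5G2 had 3.60, 3.60, 5.18, 2.67 and 2.09 normalized FPKM in L-histidine birds 1 to 5, 2.27, 3.98, 2.57, 2.87 and 3.93 in β-alanine birds 1 to 5 and 4.25, 3.60, 7.59, 10.4 and 4.53 in control birds 1 to 5. Of the β-alanine birds, 3 lay below the lowest control, and the other 2 lay among the controls. ATP5G2 had a log2 fold change of −0.81 ± 0.34 in C (adjusted p = 0.219) and −0.94 ± 0.34 in B (adjusted p = 0.424), and −0.26 in C and −0.39 in B without control birds 3 and 4.

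ATP5I, the subunit e that helps 2 ATP synthases to form a dimer (chromosome Z, 53569023 to 53570891), was the only member whose birds did not overlap between groups. ATP5I had 120.2, 127, 139, 97.4 and 112 normalized FPKM in L-histidine birds 1 to 5, 163, 194, 168, 151 and 144 in β-alanine birds 1 to 5 and 157, 159.5, 141, 236 and 155 in control birds 1 to 5. All 5 L-histidine birds lay below all 5 control birds, which held for 1.05% of all genes tested, and below all 5 β-alanine birds, which held for 0.278%. No member had all β-alanine birds below all control birds, beside 0.869% of all genes. The log2 fold change of ATP5I was −0.51 ± 0.16 in C against A (adjusted p = 0.170, and between 0.0617 and 0.878 over the alternatives run) and −0.05 ± 0.16 in B against A (adjusted p = 0.922). In this gene, control birds 3 and 4 did not stand together, at 141 and 236. Without them the estimate was −0.40 in C (95% interval −0.70 to −0.10, adjusted p = 0.693) and 0.06 in B. ATP5L, subunit g at the same dimer interface (chromosome 24), was high in both and was named after its values were seen. ATP5L had 328, 273, 529, 341 and 254 normalized FPKM in L-histidine birds 1 to 5, 389, 506, 477, 359 and 519 in β-alanine birds 1 to 5 and 361, 361, 791, 941 and 406 in control birds 1 to 5. Its log2 fold change was −0.73 ± 0.28 in C (adjusted p = 0.196) and −0.35 ± 0.28 in B (adjusted p = 0.648), and −0.12 in C and 0.26 in B without control birds 3 and 4.

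The central stalk, which turns inside the head, gave unlike values. ATP5C1, subunit gamma, and ATP5D, subunit delta, had log2 fold changes of −0.45 and −0.66 in C, and −0.25 and −0.55 in B. ATP5E, subunit epsilon, was below the control in C (−0.28) and above it in B (0.22), with adjusted p of 0.475 and 0.7103. Without control birds 3 and 4, the estimates of ATP5C1, ATP5D and ATP5E were −0.17, 0.00 and −0.12 in C, and all above the control in B, at 0.03, 0.11 and 0.38. The peripheral stalk, which holds the head still, is represented by ATP5F1 (subunit b), ATP5H (subunit d), ATP5J (coupling factor 6) and ATP5O (OSCP, the oligomycin sensitivity-conferring protein). Their log2 fold changes were −0.19, −0.59, −0.44 and −0.45 in C, and −0.05, −0.50, −0.25 and −0.50 in B. Without control birds 3 and 4 they were −0.11, −0.14, −0.04 and −0.07 in C, and 0.03, −0.04, 0.15 and −0.11 in B. ATP5F1 was the steadiest gene among the controls, with a coefficient of variation of 8.83%. ATP5J2, subunit f of the membrane part, had log2 fold changes of −0.39 in C and −0.18 in B, against −0.13 in C and 0.07 in B without those 2 birds.

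The members that are no core subunits were expressed at low levels. ATP5S, known as factor B (chromosome 5), averaged 3.43 ± 1.19 in C, 4.18 ± 0.943 in B and 4.91 ± 3.18 in A, and control bird 4, at 10.5, was above the other controls (2.77 to 4.29). Its log2 fold change was −0.50 ± 0.36 in C (adjusted p = 0.439) and −0.21 ± 0.36 in B (adjusted p = 0.840), but 0.07 in C and 0.36 in B without control birds 3 and 4. ATP5SL, known in humans as DMAC2 and there an assembly factor of complex I, had log2 fold changes of −0.74 in C and −0.40 in B, and −0.07 in C and 0.26 in B without them.

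Between the supplemented groups, C against B, 0 of the 39 genes were called, beside 0% of all genes in either direction by edgeR, and DESeq2 called 0 of the 39 as well. The control birds enter this comparison only through the scaling and the shared estimate of the spread. Estimates were lower in C for 32 of the 39 genes (82.1%), beside 48.6% of all genes, and the median log2 fold change was −0.16 for the 39 genes and 0.01 for all genes. At an unadjusted p under 0.05, 3 of the 39 (7.69%) were lower in C and 0 higher, against 1.51% of all genes lower and 2.51% higher. These were ATP5I, ATP5E and UQCR10, of which ATP5E was named after its values were seen. All of them are short, with exonic lengths of 377, 354 and 440 bases in that order. The length slope of the libraries was −0.04 to 0.11 in C and −0.07 to 0.06 in B. The log2 fold change of ATP5I was −0.46 ± 0.16 (95% interval −0.80 to −0.13, adjusted p = 0.983). ATP5E had 155, 210.2, 220.2, 116 and 111.5 normalized FPKM in L-histidine birds 1 to 5, against 206, 238, 229, 215 and 265 in β-alanine birds 1 to 5. Of the L-histidine birds, 2 reached the range of the β-alanine birds, and the log2 fold change of ATP5E was −0.50 ± 0.22 (95% interval −0.96 to −0.05). That of UQCR10 was −0.38 ± 0.17 (95% interval −0.75 to −0.01), and both had an adjusted p of 0.983. For SDHD the difference between the supplemented groups was −0.40 ± 0.26 (95% interval −0.95 to 0.16), and for UQCRFS1 it was −0.27 ± 0.26 (95% interval −0.83 to 0.29). The count was 1 without any single one of L-histidine birds 1, 4 and 5 or β-alanine birds 2 and 5. It was 5 without L-histidine bird 3, and 0 with the length trend of the libraries removed. No share of all genes at an unadjusted p under 0.05 was taken for these fits.

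Across birds, most respiratory genes were high in the same 2 libraries, those of control birds 3 and 4. Between pairs of the 39 genes, the median r was 0.65 over 15 birds, with the lowest pair at −0.25. Over the 13 birds other than control birds 3 and 4, the median was 0.39 and the lowest pair −0.49. After centring each gene on its mean over 15 birds, the mean log2 level of the 39 genes was 0.55 in control bird 3 and 0.84 in control bird 4, against −0.44 to 0.19 in the other 13 birds. Control bird 4 was the highest of all 15 birds in 28 of the 39 genes and control bird 3 in 5. Both were above each of the other 3 controls in 34 of the 39 genes (87.2%), beside 25.4% of all genes tested. The mean of these 2 birds over that of the other 3 controls had a median of 1.76 over the 39 genes and of 0.993 over all genes. The exceptions were UQCRB, UQCRH, COX8A, ATP5E and ATP5I, of which UQCRH and ATP5E were named after their values were seen. The 39 genes made up 0.790% and 0.774% of the counted fragments of control birds 3 and 4, against 0.517% to 0.695% in the other birds. Among the supplemented birds, L-histidine bird 3 (0.13) and β-alanine bird 2 (0.19) had the highest mean log2 level, and L-histidine birds 1 and 5 (−0.44 and −0.40) the lowest.

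**Figure D4:**
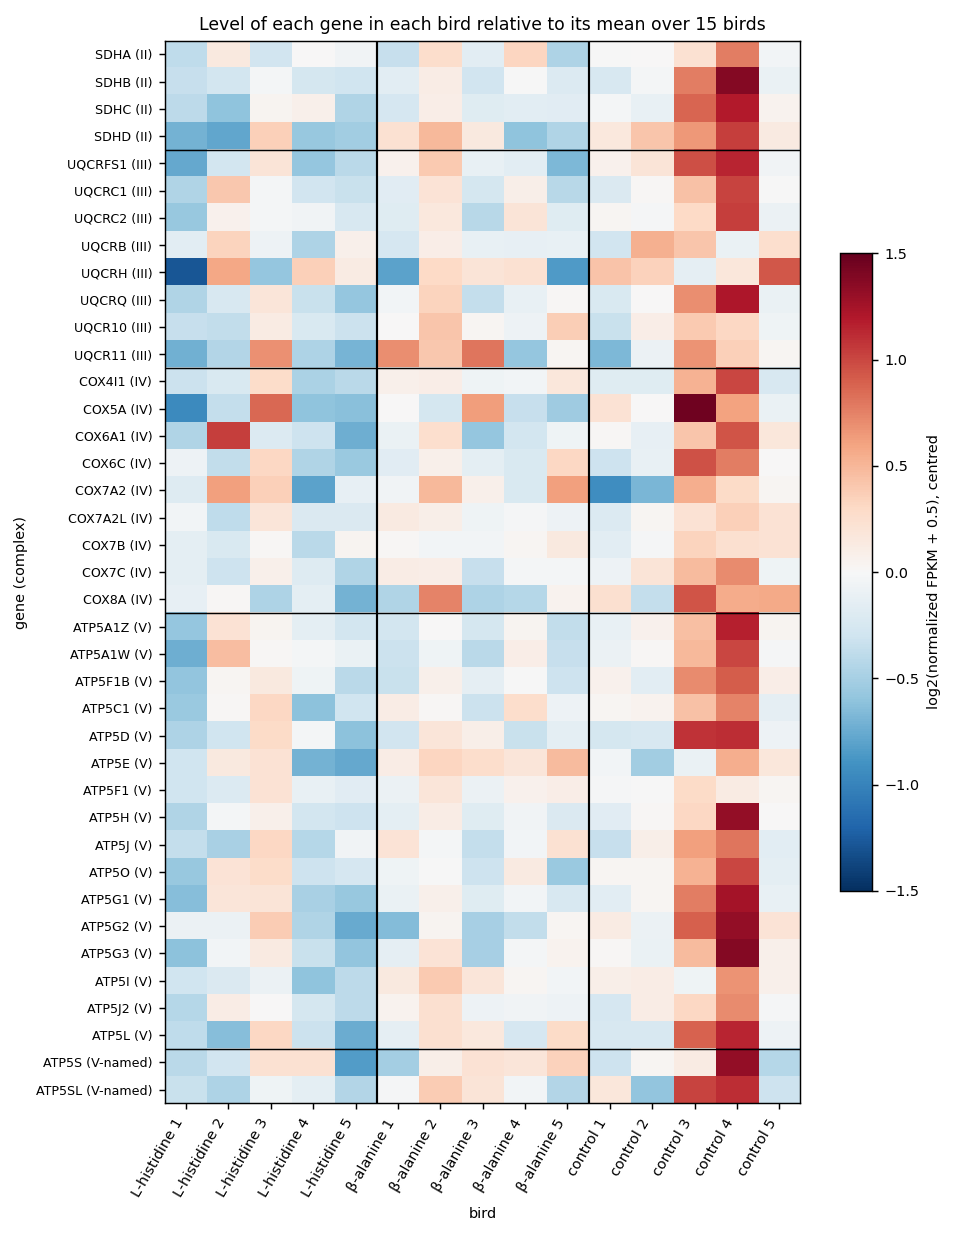
Level of each of the 39 genes (rows, by complex) in each bird (columns, L-histidine, β-alanine and control birds from left to right), as log2(normalized FPKM + 0.5) minus the mean of the gene over 15 birds. The columns of control birds 3 and 4 are red for most genes. The exceptions include UQCRH in control bird 3 and UQCRB in control bird 4, which lie below the mean of the gene.

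The level of the 39 genes moved with the length slope of the library. The r of level with slope was −0.92 over 15 birds and −0.75 over the 13 birds other than control birds 3 and 4. Control birds 3 and 4 had the steepest slopes, at −0.21, and the highest levels, and L-histidine birds 4 and 5, with slopes of 0.09 and 0.11, were among the lowest birds. The lowest, L-histidine bird 1, had a slope of 0.05. With the length trend removed from every library, 3 of the 39 genes in C and 5 in B were at an unadjusted p under 0.05. Of those in B, 1 was higher. The share of all genes at that limit was not taken for this setting. The median log2 fold change was then −0.19 in C and −0.22 in B. With control birds 3 and 4 left out as well, the count was 1 in C and 0 in B, and the median was −0.05 in C and −0.06 in B. The part of RNA quality and library preparation in these differences was not tested. By the paper's read statistics, control libraries 3 and 4 had the lowest mapping rates and the highest GC content of all libraries. The summed level of 10 markers of slow or oxidative fibres, which hold more mitochondria, was 6612 to 14310 normalized FPKM in C, 7166 to 11150 in B and 7735 to 20210 in A. Control bird 4 had the highest sum, 20210, and control bird 3 had 11310, within the range of C. For the 6 skeletal muscle markers matched in the table, control bird 4 also had the highest sum, 145100, and control bird 3 had 91270. Of the 10 slow or oxidative markers, 0 were at 0 in all birds, and the part of fibre type in the result was not tested.

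**Figure D5:**
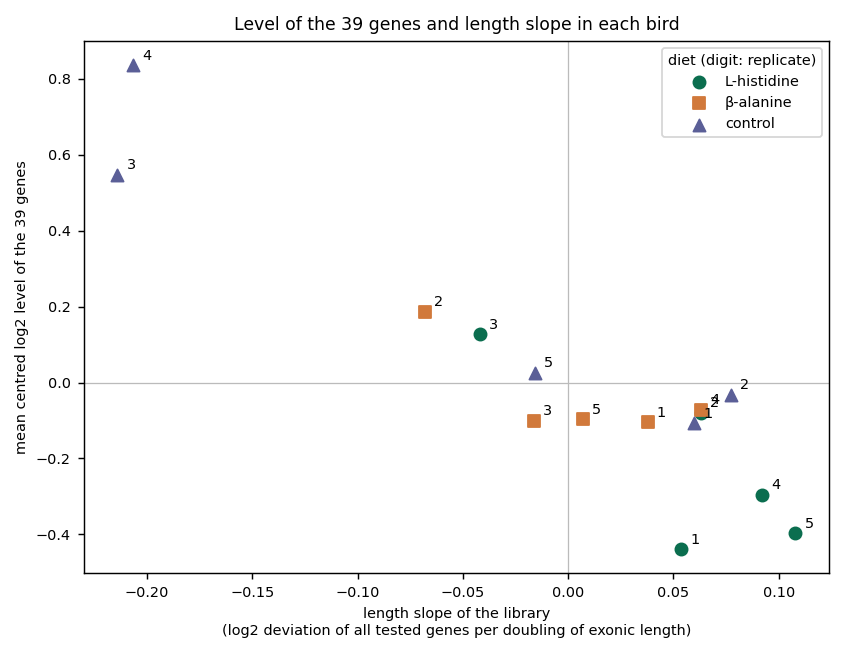
Mean centred log2 level of the 39 genes in each bird against the length slope of its library (log2 deviation of all tested genes per doubling of exonic length), with symbols for L-histidine, β-alanine and control birds, numbered by replicate. Control birds 3 and 4 lie alone at the upper left, with slopes of −0.21 and levels of 0.55 and 0.84, and the other 13 birds lie between −0.44 and 0.19.

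Other genes of mitochondrial energy metabolism were counted from lists chosen with earlier results of these data known, and none passed edgeR's test in any comparison. Of 33 assembly factors of complexes II to V, which build the complexes without remaining in them, 18 were lower in C and 4 in B at an unadjusted p under 0.05, and 0 were higher, beside 11.2% of all genes lower in C and 6.17% in B, which is the background for each list here with all birds. Their median log2 fold change was −0.45 in C and −0.14 in B with all birds, and −0.17 in C and 0.06 in B without control birds 3 and 4. DESeq2 gave 3 of them an adjusted p under 0.05 in C, SDHAF2, COX14 and COX19, all lower, beside 0.900% of all genes lower. COX19, needed to assemble complex IV in yeast, averaged 14.3 ± 1.49 normalized FPKM in C and 22.0 ± 3.82 in A (log2 fold change −0.62, DESeq2 adjusted p = 0.0341, and −0.46 in edgeR without control birds 3 and 4). Without control birds 3 and 4, 3 assembly factors were lower (COX14, COX19 and COA5) and 1 higher (CMC2) in C at an unadjusted p under 0.05, and in B 3 were higher (CMC2, COA3 and TTC19) and 0 lower. The background without these birds was 2.71% of all genes lower and 3.74% higher in C, and 3.13% lower and 3.36% higher in B. Complex I feeds electrons from NADH into the same chain. Its list was taken by NDUF gene names and includes NDUFA4, so it may hold genes that are no subunits of complex I. Of the 33 genes of this list, 25 were lower in C at that limit with all birds, again beside 11.2% of all genes. In B, 6 of the 33 were lower, beside 6.17% of all genes. Their median was −0.57 in C and −0.35 in B with all birds, and −0.16 in C and 0.03 in B without control birds 3 and 4. DESeq2 gave an adjusted p under 0.05 to 3 of them in C, NDUFA12, NDUFC2 and NDUFV3, all lower, beside 0.900% of all genes lower. With control birds 3 and 4 left out, 2 were lower in C (NDUFA12 and NDUFV3) at an unadjusted p under 0.05, and in B 1 was higher (NDUFB3).

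Of 13 citrate cycle enzymes, 5 in C and 6 in B were lower at an unadjusted p under 0.05 with all birds (background 11.2% in C and 6.17% in B), and 0 in C and 0 in B without control birds 3 and 4. The median log2 fold change of these enzymes was −0.43 in C and −0.41 in B with all birds, and −0.14 in C and −0.10 in B without the 2 controls. CS, citrate synthase, a common measure of mitochondrial content, averaged 107 ± 21.3 normalized FPKM in C, 108 ± 10.2 in B and 161 ± 60.5 in A. Its log2 fold change was −0.59 in C (adjusted p = 0.193) and −0.58 in B (adjusted p = 0.437), and without control birds 3 and 4 it was −0.14 in C and −0.13 in B. Of 15 genes of electron carriers and quinone synthesis, 5 in C and 2 in B were lower at an unadjusted p under 0.05 with all birds. Of 14 genes of mitochondrial membranes and import, 3 in C and 3 in B were, against the same background of 11.2% in C and 6.17% in B. The medians were −0.33 in C and −0.24 in B for the carriers, and −0.13 in C and −0.19 in B for membranes and import. Without control birds 3 and 4 they were −0.12 in C and 0.06 in B for the carriers, and −0.09 in C and −0.10 in B for membranes and import. CYCS, cytochrome c, which carries electrons between complexes III and IV, averaged 98.4 ± 10.7 in C and 130.2 ± 20.7 in A, and its log2 fold change was −0.40 in C (adjusted p = 0.206) and −0.38 in B (adjusted p = 0.445), and −0.27 in C and −0.24 in B without control birds 3 and 4. DESeq2 gave no gene of these 3 lists an adjusted p under 0.05 in C or B. Without control birds 3 and 4, 1 gene of each of the last 2 lists was lower in C and in B at an unadjusted p under 0.05. These were COQ5, of quinone synthesis, and MFN2, of mitochondrial fusion, beside 2.71% of all genes lower in C and 3.13% in B.

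The 18 regulators of mitochondrial biogenesis did not lie to one side. Their median log2 fold change was 0.08 in C and 0.12 in B, and 0.15 in C and 0.09 in B without control birds 3 and 4. In C, GABPB1, PPARA and SIRT1 were higher and SIRT3 lower at an unadjusted p under 0.05 (background 7.99% of all genes higher and 11.2% lower). DESeq2 gave GABPB1 and PPARA an adjusted p under 0.05. The share of all genes higher at that limit is not given here. At a stricter rule, with a fold change of at least 1.5 as well, DESeq2 called 225 of 15897 genes in C, in either direction. When control birds 3 and 4 were left out, GABPB1 and PPARA were higher and MEF2A lower in C at an unadjusted p under 0.05. PPARGC1A was then higher and MEF2A lower in B. The background was then 3.74% of all genes higher and 2.71% lower in C, and 3.36% higher and 3.13% lower in B. With all birds, PPARGC1A, the coactivator PGC-1α that raises respiratory gene expression, was the only one at an unadjusted p under 0.05 in B. The background in B was 4.47% of all genes higher and 6.17% lower. PPARGC1A was at 1.19 ± 0.735 normalized FPKM in C, 1.99 ± 1.59 in B and 0.627 ± 0.366 in A, with a log2 fold change of 0.91 in C (adjusted p = 0.361) and 1.65 in B (adjusted p = 0.425). Without control birds 3 and 4 its log2 fold change was 0.95 in C and 1.69 in B. TFAM, which packages and transcribes mitochondrial DNA, was at 13.3 ± 0.815 in C, 15.1 ± 2.21 in B and 16.2 ± 5.08 in A. The log2 estimates of TFAM were −0.28 in C (adjusted p = 0.41) and −0.10 in B (adjusted p = 0.85). Without control birds 3 and 4 they were 0.006 in C and 0.19 in B. The genes named from these lists were chosen after their values were seen.

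Of all genes outside the 39, those whose level followed the mean log2 level of the 39 most closely over 15 birds were NDUFB5 (r = 0.974), ATRAID (r = 0.971) and NDUFS5 (r = 0.963). NDUFB5 and NDUFS5 are subunits of complex I. Over the 13 birds other than control birds 3 and 4, r was 0.917 for NDUFB5, 0.893 for ATRAID and 0.867 for NDUFS5. These 3 genes are short, with exonic lengths of 683, 934 and 669 bases, and the birds share the length slope of their libraries with the 39 genes. Among the 39, the mean of the other members was followed least by UQCRH (r = 0.14) and UQCRB (r = 0.27) over 15 birds.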

How the data were processed

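RNA-seq of breast muscle was analysed in 15 female KRC, 5 in each of groups C, B and A. Per the paper's methods and the labels, adapters and poor bases were removed by the authors with cutadapt 1.9.1, alignment to GRCg6a used HISAT2 2.0.1, and HTSeq 0.6.1 gave the counts. The deposited table holds a whole-number count for every gene and bird, and the deposited FPKM equal the count divided by exonic length and library total. Not given in the sources used here are the use of strand, the treatment of fragments matching several places, and which of the named library kits each bird received. Intervals and tests do not separate PCR copies from independent molecules.

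Genes had to reach a mean of 0.2 in the deposited FPKM, which left 11858. Their counts were scaled by RLE and modelled in edgeR 4.0.16 (R 4.3.3), with all 15 birds in 1 model without covariates (12 residual degrees of freedom). The quasi-likelihood test was applied to 3 contrasts with Benjamini-Hochberg adjustment over all 11858 genes. DESeq2 1.42.0, the study's tool, was an alternative (15897 genes with a count). Alternatives changed the scaling, the filter, the model and the birds. In 1 of them the length trend of each library, a lowess curve with span 0.5 on log2 exonic length, entered as an offset, and leaving out control birds 3 and 4 together was chosen after seeing the data. The SE of a log2 fold change was taken as its absolute value divided by the square root of the quasi-likelihood F statistic. Intervals are at 95% and were built from this SE.

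The members and lists were chosen with earlier results of these data known. Genes named with values are, in each complex, the 2 members with the smallest unadjusted p in B against A and in C against A, the highest and the lowest by mean level, the defining subunits and the tissue isoforms. Other members are given with estimates or levels outside this rule, some of them after their values were seen. Coordinates are on GRCg6a. The table names chromosomes by sequence record, so common names were assigned through shared gene symbols in a later build and left out where unsure. No sequence is shown.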

Additional observations from a re-analysis of the deposited data

Results flagged for a closer look

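In 14 of the 117 gene and diet groups, 1 bird lay far from the other 4 of its group by Dixon's criterion, which chance alone reaches in about 1 of 20 groups. L-Histidine bird 3 was the high bird in 6 of them. It had 140.3 normalized FPKM for SDHB (next highest 118.3), 158.9 for SDHD (next 85.8), 576.2 for UQCR10 (next 449.9), 353.6 for UQCR11 (next 162), 438.4 for COX4I1 (next 307.5) and 270.4 for COX5A (next 115.9). Control bird 4 was the high bird in another 6. It had 168.3 for SDHA (next 115.1), 296.8 for UQCRC2 (next 177.9), 538 for ATP5H (next 267.6), 306.9 for ATP5G3 (next 164.1), 236.1 for ATP5I (next 159.5) and 10.48 for ATP5S (next 4.293). β-Alanine bird 2 had 58.67 for SDHC (next 48.84), and L-histidine bird 2 had 143.2 for COX6A1 (next 60.31). The groups of different genes share their birds, so these are few birds rather than 14 separate events.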

How the results depend on the processing

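No alternative brought a member past edgeR's threshold. DESeq2 called 2 members, SDHD (−0.91) and UQCRFS1 (−0.89), in C against A, and 225 of all genes there and 58 in B against A. A fit of only the 2 groups compared called 1 gene in C. With each bird left out in turn, edgeR called 0 to 2 of all genes in C, 0 to 1 in B and 0 in C against B. Members at an unadjusted p under 0.05 then numbered 6 to 28 in C, 0 to 16 in B and 1 to 5 in C against B, and medians were −0.61 to −0.30, −0.50 to −0.17 and −0.25 to −0.12. Without scaling beyond library totals, members at that limit numbered 3 in C and 2 in B. With the length trend removed they numbered 3 in C, 5 in B and 0 in C against B. Without control birds 3 and 4 they numbered 2 in C (median −0.12) and 0 in B (median −0.012), and with the length trend removed as well 1 in C (median −0.047), 0 in B (median −0.061) and 0 in C against B. Apart from the fit that only left out control birds 3 and 4, no share of all genes at that limit was taken for these alternatives. The cause of the differences between alternatives was not tested.

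Between birds of different groups, deviations correlated at r −0.217 to 0.279 over 15 pairs with the same replicate number. Over 60 other pairs, r was −0.329 to 0.357. Ranges over unequal numbers of pairs cannot show whether the numbers pair the birds, and the main model used no pairing. With the replicate block, members at an unadjusted p under 0.05 numbered 19 in C, 8 in B and 3 in C against B. With the block, and with the length trend removed, they numbered 5 in C, 7 in B and 0 in C against B. No share of all genes at that limit was taken for either fit.

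Among the 39 genes, estimates turned sign as follows. Without scaling they became positive in C for SDHA (0.013), UQCRB (0.045), COX6A1 (0.046), COX7A2L (0.028), COX7B (0.026), ATP5E (0.039) and ATP5F1 (0.086), and in B for COX4I1 (0.051), COX7A2L (0.095), COX7B (0.11), ATP5F1 (0.16), ATP5J (0.0027), ATP5I (0.18), ATP5J2 (0.059) and ATP5S (0.082). With the length trend removed they became positive in C for UQCR10 (0.11), UQCR11 (0.061), COX6A1 (0.11), COX7B (0.16), ATP5E (0.15), ATP5F1 (0.083) and ATP5J2 (0.059), and in B for COX4I1 (0.0032), COX7A2L (0.011), COX7B (0.085), ATP5F1 (0.092), ATP5I (0.13) and ATP5J2 (0.036). With the replicate block as well they were positive in C for UQCR10 (0.12), UQCR11 (0.026), COX7B (0.16), ATP5E (0.17), ATP5F1 (0.086) and ATP5J2 (0.063), and in B for COX4I1 (0.017), COX7A2L (0.0098), COX7B (0.099), ATP5F1 (0.093), ATP5I (0.16), ATP5J2 (0.048) and ATP5S (0.070). Leaving out control birds 3 and 4, they became positive in C for COX4I1 (5e-04), ATP5A1W (0.0036), ATP5D (0.0034) and ATP5S (0.073), and in B for SDHB (0.025), UQCRQ (0.098), COX4I1 (0.25), COX6C (0.12), COX7B (0.0085), ATP5C1 (0.032), ATP5D (0.11), ATP5F1 (0.035), ATP5J (0.15), ATP5I (0.065), ATP5J2 (0.075), ATP5L (0.26), ATP5S (0.36) and ATP5SL (0.26). With the length trend removed besides, they were positive in C for UQCR11 (0.069), COX4I1 (0.064), COX6A1 (0.11), COX6C (0.037), ATP5A1W (0.019), ATP5D (0.037), ATP5J (0.043) and ATP5S (0.12), and in B for COX4I1 (0.17), COX6C (0.023), ATP5D (0.057), ATP5J (0.066), ATP5L (0.16), ATP5S (0.29) and ATP5SL (0.20). With 1 bird left out, COX7A2 in C ranged over −0.090 to 0.34, and in B UQCR10 over −0.029 to 0.15, COX4I1 over −0.33 to 0.032, ATP5I over −0.12 to 0.099 and ATP5S over −0.36 to 0.25. Besides these and the 2 genes that DESeq2 called, the estimates of the 39 genes kept their direction and their side of the threshold under the alternatives run, 821 in C and 811 in B, as did the 110 of the 5 genes followed in C against B. TMM scaling, robust fitting, no filter and a filter at a mean FPKM of 1 changed no call. The 5 birds per group limit the precision. ATP5G2, ATP5S and COX7A2 had under 130 fragments in any library, and COX5A had the largest SE against the control, 0.36 in C and in B.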
